A study of Homo sapiens with 12 samples.

Results

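The 8 genes described here encode transcription factors that direct blood stem and progenitor cells into the myeloid and lymphoid lineages. They were chosen by name, with earlier results of these data known. Each was found as 1 row among the 21996 Ensembl gene rows of the deposited table: SPI1 (ENSG00000066336_at), CEBPA (ENSG00000245848_at), CEBPB (ENSG00000172216_at), MYB (ENSG00000118513_at), GFI1 (ENSG00000162676_at), IRF8 (ENSG00000140968_at), IKZF1 (ENSG00000185811_at) and MEF2C (ENSG00000081189_at). RNA was measured on 12 arrays of TF-1, a human erythroleukaemia line that needs the cytokine GM-CSF to grow. All cells carried the retroviral vector pMSCV-puro by stable transduction, either empty or with GNB1 K89E, a mutant of a G protein beta subunit that pairs with a gamma subunit to carry receptor signals. RNA was taken from both lines while in GM-CSF and 12 hours after the cytokine was removed, in biological triplicate, giving 4 groups of 3 arrays. The labels do not say whether triplicates were separate cultures, so the p-values measure the spread between these arrays. A line with unmutated GNB1 in the vector was not among the groups, and the mutant and any other lasting difference between the lines cannot be told apart. The sources used here do not say whether a line was 1 clone or a pool of cells. The lineage markers of TF-1 and the level of GNB1 were not analysed here, because the rows carry Ensembl IDs that were not paired with symbols beyond these 8.

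GM-CSF is a growth factor of the myeloid lineage that signals through a receptor coupled to the kinase JAK2, with STAT5, the RAS and ERK cascade and PI3 kinase downstream. The factors in the list act below such signals on lineage choice. PU.1, the product of SPI1, and the C/EBP factors drive granulocyte and monocyte programmes. MYB keeps progenitors immature, and GFI1 is a zinc finger repressor that favours granulocytes over monocytes. IRF8 serves monocytes and dendritic cells, IKZF1 encodes Ikaros, which is needed for lymphoid development, and MEF2C encodes a MADS box factor that takes part in lymphoid and megakaryocyte differentiation and is known as an oncogene in acute leukaemias.

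Sequences are shown first, for the 4 genes on which the results turn. CEBPB and GFI1 fell together after withdrawal in both lines. CEBPA had opposite signs of change in the lines, though neither its rise in K89E cells nor the difference of responses was called. MEF2C was called in all 4 pairwise comparisons, but its call for withdrawal in K89E cells was lost in some alternative fits. The share of all rows called in all 4 was not counted. Each line holds the 250 bases upstream of a transcription start listed by RefSeq, read 5′ to 3′ on the strand of the gene. Capitals mark matches to GAGGAA for PU.1, TTGCNNAA for C/EBP, AACNG for MYB, AATC for GFI1 and the tandem motif of IRF factors, 2 copies of GAAA with 2 bases between, searched on both strands.
CEBPB, GRCh38.p14 chr20:50190333-50190582, plus strand: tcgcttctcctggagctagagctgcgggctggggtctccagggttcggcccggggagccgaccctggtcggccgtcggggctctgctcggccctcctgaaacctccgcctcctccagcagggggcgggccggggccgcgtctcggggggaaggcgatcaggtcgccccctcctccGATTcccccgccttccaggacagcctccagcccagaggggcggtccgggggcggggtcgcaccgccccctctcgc
GFI1, GRCh38.p14 chr1:92486926-92487175, minus strand: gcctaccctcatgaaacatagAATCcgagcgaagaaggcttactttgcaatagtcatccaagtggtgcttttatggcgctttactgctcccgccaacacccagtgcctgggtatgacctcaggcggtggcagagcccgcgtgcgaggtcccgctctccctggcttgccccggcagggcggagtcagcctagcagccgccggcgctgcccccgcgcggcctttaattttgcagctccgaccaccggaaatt
CEBPA, GRCh38.p14 chr19:33302535-33302784, minus strand: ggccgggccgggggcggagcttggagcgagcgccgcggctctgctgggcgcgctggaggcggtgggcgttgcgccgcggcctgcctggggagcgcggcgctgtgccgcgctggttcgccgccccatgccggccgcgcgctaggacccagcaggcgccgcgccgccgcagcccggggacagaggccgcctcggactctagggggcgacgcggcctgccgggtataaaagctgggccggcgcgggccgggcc
MEF2C, GRCh38.p14 chr5:88883185-88883434, minus strand: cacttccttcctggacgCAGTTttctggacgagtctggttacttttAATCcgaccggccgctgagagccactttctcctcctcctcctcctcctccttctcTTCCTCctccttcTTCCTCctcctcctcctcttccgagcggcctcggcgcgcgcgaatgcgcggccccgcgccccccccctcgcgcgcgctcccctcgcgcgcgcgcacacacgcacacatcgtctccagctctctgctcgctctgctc

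The set of RefSeq starts used here held 7 of the 8 genes, all but SPI1, and 19 starts of these genes in all. The first start listed is shown for each of the 4 genes above. MEF2C has 7 listed starts and GFI1 3, and the arrays do not tell which start TF-1 cells use. The CEBPB and GFI1 windows each held 1 match to AATC, the core of the GFI1 site, and none to the other motifs. A match to AATC is found in 64.8% of the 35116 listed windows of this length. In the GFI1 window it lay on the strand of the gene, 229 to 226 bases upstream of the start. In the CEBPB window it lay on the opposite strand, 75 to 72 bases upstream. The MEF2C window held 2 matches to GAGGAA on the opposite strand, in a stretch of pyrimidines, where 23.6% of all windows hold at least 1. It also held 1 match each to AACNG and AATC, which do not overlap the others, and 70.6% of all windows hold AACNG. The CEBPA window held no match to any of the motifs. It was the richest of the 4 in G and C, at 81.2% against a median of 58.0% over all windows. TTGCNNAA and the IRF motif were in none of the 4 windows and in 9.05% and 3.02% of all windows. A match is a string of letters in this window and was not tested as a binding site.

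The authors deposited normalized intensities on a linear scale. Array medians lay between 172.6 and 179.9, and replicate arrays correlated at 0.996 to 0.999 in log2 level over all rows. Changes are given on the log2 scale from a limma fit to all rows and all 12 arrays, with p-values adjusted over the 21996 rows by the Benjamini-Hochberg method, and a change was called at an adjusted p under 0.05. In bulk RNA, fewer cells with a transcript and less of it per cell cannot be told apart. IRF8 was the dimmest of the 8 relative to the arrays, between 42.0 and 51.0 on the 12 arrays and below the median of every array. CEBPA, between 166.2 and 235.0, and GFI1, between 182.7 and 265.9, lay near or above the medians, and the other 5 genes lay well above them. The highest array exceeded the lowest by 1.10-fold for MYB, the least, and by 1.46-fold for GFI1, the most. In empty vector cells, the absolute withdrawal change exceeded that of 96.2% of all rows for CEBPB, 95.4% for GFI1 and 95.2% for CEBPA. For MEF2C the share was 79.6%, for SPI1 56.1%, for IRF8 56.0%, for IKZF1 42.2% and for MYB 30.2%.

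**Figure D1:**
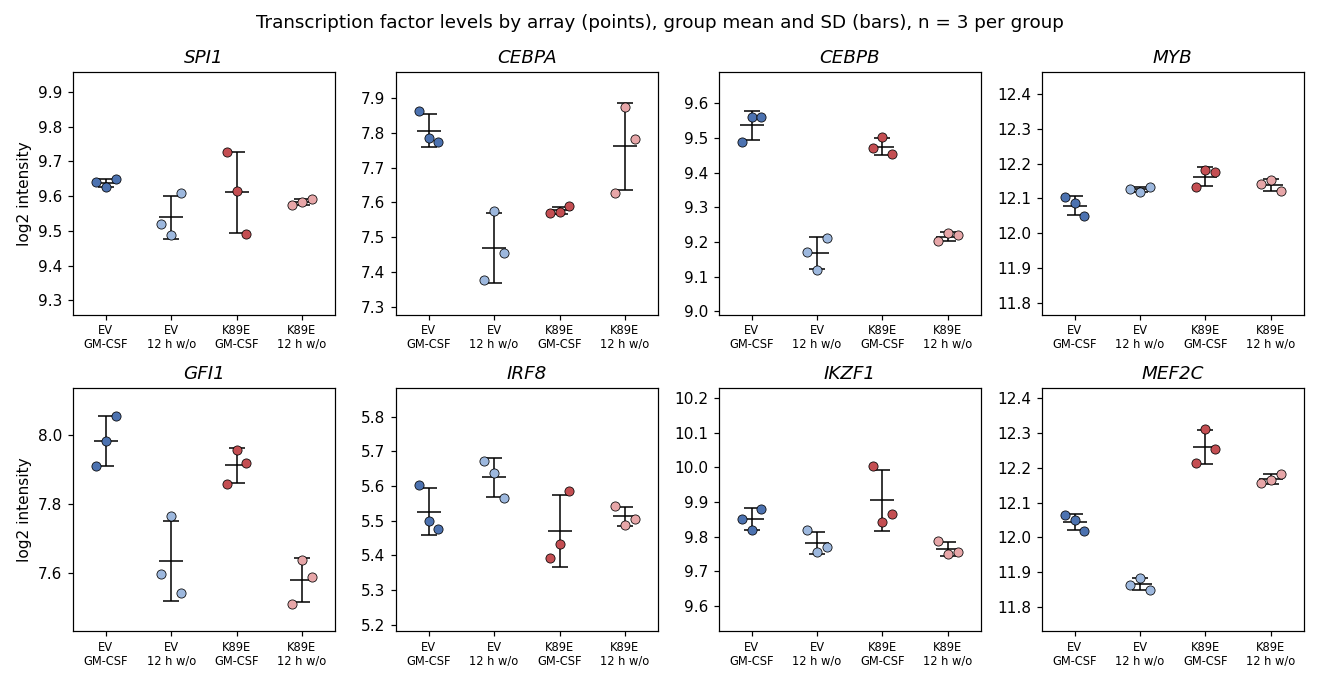
The log2 intensity of each of the 8 genes is plotted for every array, with 1 point per array, the group mean as a horizontal bar and the SD as whiskers. EV is empty vector, "12 h w/o" is 12 hours after GM-CSF withdrawal, and every panel spans the same 0.7 log2 units. CEBPB and GFI1 drop on withdrawal in both lines, MEF2C is higher in K89E cells, and CEBPA forms a crossed pattern. The difference of CEBPA responses between the lines was not called.

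In empty vector cells, withdrawal of GM-CSF lowered 4 of the 8 genes, CEBPA, CEBPB, GFI1 and MEF2C, and raised none. Over all rows 20.4% were called in this comparison, 11.7% as lower and 8.73% as higher. In K89E cells 4 of the 8 fell, CEBPB, GFI1, IKZF1 and MEF2C, and none rose, where 17.9% of all rows were called, 10.6% as lower and 7.29% as higher. This count of 4 was 2 without K89E withdrawn replicate 2. Over the 8 genes the median log2 change was -0.14 without and -0.06 with the mutant, beside 0.01 and 0.02 over all rows. The median absolute change was 0.14 and 0.12, beside 0.08 in both lines over all rows. Between the lines, 2 of the 8 genes, CEBPA and MEF2C, were higher in K89E cells after withdrawal and none was lower. In that comparison 12.5% of all rows were called, 6.52% as higher and 6.01% as lower. Without K89E withdrawn replicate 2 only MEF2C was called there. With GM-CSF kept, MEF2C and MYB were higher and CEBPA was lower in K89E cells, where 9.61% of all rows were called, 5.21% as higher and 4.39% as lower. This count of 3 was 1 without replicate 2 or 3 of either GM-CSF group, and the CEBPA and MYB calls were lost in 12 and 8 of 21 alternatives.

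**Figure D2:**
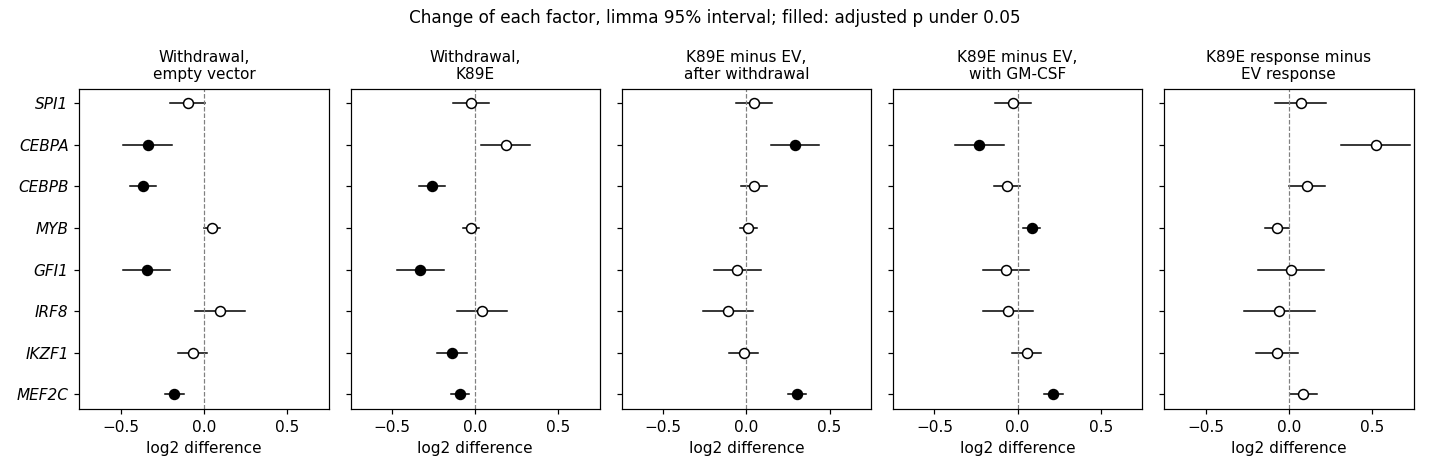
The log2 difference of each gene is plotted on the x axis for the 4 pairwise comparisons and for the difference of the withdrawal responses, with its 95% limma interval, and filled points mark an adjusted p under 0.05. MEF2C is filled in all 4 pairwise panels, CEBPB and GFI1 in both withdrawal panels, and no gene in the panel of the difference. The share of all rows called in all 4 pairwise comparisons was not counted.

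CEBPB encodes C/EBP beta, a leucine zipper factor that in mice sustains granulocyte production under cytokine stimulation. Its intensity in empty vector cells with GM-CSF was 718.4, 754.5 and 755.0, and 12 hours after withdrawal it was 576.4, 556.6 and 593.4. In K89E cells it was 709.0, 724.9 and 701.3 with GM-CSF and 589.2, 598.3 and 596.4 without it. All 6 withdrawn arrays lay below all 6 arrays with GM-CSF, and within each condition the arrays of both lines overlapped. Withdrawal lowered it 1.29-fold in empty vector cells, a log2 change of -0.37 (limma adjusted p = 7.5e-06, SE 0.04). In K89E cells the level was 1.20-fold lower, a log2 change of -0.26 (limma adjusted p = 2.1e-04, SE 0.04). The line effect was not called with GM-CSF (-0.06, 95% interval -0.14 to 0.02, limma adjusted p = 0.40) or without it (0.05, 95% interval -0.03 to 0.13, limma adjusted p = 0.48). The responses of the lines differed by 0.11 (95% interval -0.0018 to 0.22, limma adjusted p = 0.90).

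GFI1 encodes a repressor that recruits histone demethylase and deacetylase complexes. Its intensity with GM-CSF was 240.3, 252.7 and 265.9 in empty vector cells and 231.9, 248.5 and 242.0 in K89E cells. After withdrawal it was 193.9, 217.5 and 186.6 in empty vector cells and 182.7, 199.3 and 192.7 in K89E cells. As for CEBPB, every withdrawn array lay below every array with GM-CSF, and the lines overlapped within each condition. The log2 change of GFI1 on withdrawal was -0.35 (limma adjusted p = 0.0015, SE 0.07) in empty vector and -0.33 (limma adjusted p = 0.0026, SE 0.07) in K89E cells. These are 1.27-fold and 1.26-fold lower levels. The difference between the responses was 0.02, with a 95% interval of -0.18 to 0.21 (limma adjusted p = 1.0). K89E cells differed from empty vector cells by -0.07 (95% interval -0.21 to 0.07, limma adjusted p = 0.65) with GM-CSF and by -0.05 (95% interval -0.19 to 0.09, limma adjusted p = 0.68) without it.

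CEBPB and GFI1 were the most alike pair of the list. Their log2 levels over the 12 arrays, which fall into 4 groups, correlated at r = 0.89, and within groups, after group means were subtracted, at r = -0.11. Among all other rows, 559 followed CEBPB more closely than GFI1 did, and 360 followed GFI1 more closely than CEBPB did. The next most like CEBPB in the list was IKZF1, at r = 0.68, which was also second for GFI1, at r = 0.58. Within groups, r of IKZF1 was -0.08 with CEBPB and -0.38 with GFI1. These values describe 12 arrays that share the same withdrawal step.

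MEF2C separated all 4 groups. The share of all rows that separate all 4 groups was not counted. With GM-CSF its intensity was 4279, 4243 and 4146 in empty vector cells and 4749, 5080 and 4887 in K89E cells. After withdrawal it was 3724, 3774 and 3688 in empty vector cells and 4561, 4596 and 4649 in K89E cells. No arrays of neighbouring groups overlapped in the order empty vector withdrawn, empty vector with GM-CSF, K89E withdrawn and K89E with GM-CSF. The mean of K89E cells without GM-CSF lay 0.12 above that of empty vector cells with it on the log2 scale, a contrast of 2 conditions at once for which no test was made. After withdrawal MEF2C was 1.23-fold higher in K89E than in empty vector cells, a log2 difference of 0.30 (limma adjusted p = 4.1e-06, SE 0.03). With GM-CSF it was 1.16-fold higher, a log2 difference of 0.22 (limma adjusted p = 1.2e-04, SE 0.03). By p-value it ranked 83rd of all rows after withdrawal and 193rd with GM-CSF.

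Withdrawal lowered MEF2C 1.13-fold in empty vector cells, a log2 change of -0.18 (limma adjusted p = 2.1e-04, SE 0.03). In K89E cells it lowered MEF2C 1.07-fold, a log2 change of -0.09 (limma adjusted p = 0.025, SE 0.03). That call was lost, with adjusted p up to 0.13, in 6 of 21 alternatives, among them leaving out replicate 1 or 2 of the withdrawn or replicate 2 or 3 of the GM-CSF arrays of K89E cells. Without K89E GM-CSF replicate 2, the brightest of its group, the change was -0.07. The responses differed by 0.09 (95% interval 0.01 to 0.17) at an unadjusted p of 0.033 and a limma adjusted p of 0.85, so a difference between the lines was not called. The factor of the list most like MEF2C over the 12 arrays was MYB, at r = 0.50, followed by CEBPB at r = 0.44, and 2758 other rows followed MEF2C more closely than MYB did. Within groups, r of MEF2C was 0.62 with MYB and -0.13 with CEBPB.

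CEBPA encodes C/EBP alpha, which in mice is required for the first granulocytic steps and halts proliferation as cells mature. In empty vector cells its intensity was 232.9, 220.5 and 218.9 with GM-CSF and 166.2, 190.7 and 175.5 after withdrawal. In K89E cells it was 190.0, 190.4 and 192.5 with GM-CSF and 197.7, 235.0 and 220.0 after withdrawal. Every withdrawn array of empty vector cells was below the arrays with GM-CSF, and every withdrawn array of K89E cells was above them. In empty vector cells the level fell 1.26-fold, a log2 change of -0.34 (limma adjusted p = 0.0024, SE 0.07). In K89E cells it was 0.18 (95% interval 0.04 to 0.33, limma adjusted p = 0.081), which was not called. Without K89E withdrawn replicate 1, the dimmest of its group, it was 0.25 and called (limma adjusted p = 0.022). Without K89E withdrawn replicate 2, the brightest, it was 0.13 (limma adjusted p = 0.29), and 1 of 21 alternatives called it.

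The CEBPA responses differed by 0.52 (SE 0.10, 95% interval 0.32 to 0.73) on the log2 scale. By p-value this difference ranked 21st of the 21996 rows, of which 15, or 0.0682%, were called, and its limma adjusted p of 0.097 did not pass. The adjusted p ran from 0.060 to 0.26 over 20 alternatives, and the difference was between 0.47 and 0.59 with any 1 array left out. None of the 8 genes was called for the difference of responses. At an unadjusted p under 0.05 there were 3, CEBPA, MYB and MEF2C, where 5.61% of all rows were under this value.

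Between the lines, CEBPA was lower in K89E cells with GM-CSF and higher after withdrawal. The log2 difference with GM-CSF was -0.23 (limma adjusted p = 0.049, SE 0.07), close to the threshold, and 12 of 21 alternatives lost the call, with adjusted p up to 0.18. Leaving out any 1 of the 6 arrays with GM-CSF, or replicate 3 of either withdrawn group, was among them. The replicate block, which groups arrays by replicate number, gave -0.23 at a limma adjusted p of 0.052. After withdrawal CEBPA was 1.22-fold higher in K89E cells, a log2 difference of 0.29 (limma adjusted p = 0.011, SE 0.07). It was 0.24 (limma adjusted p = 0.052) without K89E withdrawn replicate 2, and a fit on both withdrawn groups alone gave an adjusted p of 0.060. In order of mean level, empty vector withdrawn and K89E with GM-CSF overlapped at the low end, K89E withdrawn and empty vector with GM-CSF overlapped at the high end, and the low and high pairs did not. The genes of the list most like CEBPA were CEBPB, at r = 0.36, and MEF2C, at r = 0.35, over the 12 arrays, with 2291 and 2491 rows more alike. Within groups, r of CEBPA was -0.32 with CEBPB and 0.30 with MEF2C.

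**Figure D3:**
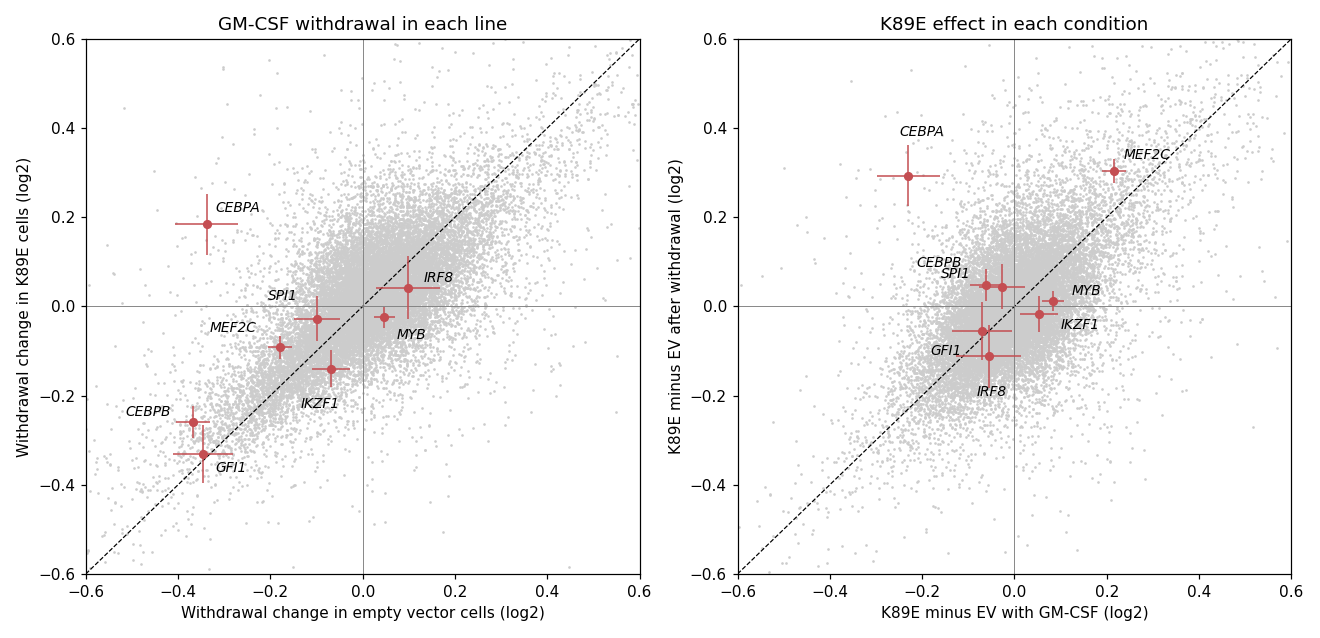
The left panel plots the log2 withdrawal change in empty vector cells against that in K89E cells, and the right panel the log2 K89E effect with GM-CSF against that after withdrawal. Red points with SE bars are the 8 genes, grey points all rows within the axes, with 209 rows outside on the left and 226 on the right, and the dashed line marks equal values. CEBPA lies in the upper left of both panels, and CEBPB and GFI1 near the line of equal withdrawal changes.

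MYB, which holds progenitors in an immature, dividing state, was the least variable gene of the list. Its intensity with GM-CSF was 4398, 4349 and 4234 in empty vector cells and 4489, 4644 and 4624 in K89E cells. After withdrawal it was 4469, 4450 and 4489 in empty vector cells and 4519, 4553 and 4452 in K89E cells. With GM-CSF the K89E arrays lay 1.06-fold above the empty vector arrays, a log2 difference of 0.08 (limma adjusted p = 0.034, SE 0.02). This call was lost in 8 of 21 alternatives, with adjusted p up to 0.20. Leaving out replicate 2 or 3 of either GM-CSF group was among them. After withdrawal the lines overlapped, at a difference of 0.01 (95% interval -0.04 to 0.06, limma adjusted p = 0.81). Withdrawal gave a log2 change of 0.05 (95% interval -0.0026 to 0.10, limma adjusted p = 0.19) in empty vector cells and -0.02 (95% interval -0.07 to 0.02, limma adjusted p = 0.54) in K89E cells. For MYB the responses differed by -0.07 (95% interval -0.14 to -0.0015, limma unadjusted p = 0.046, limma adjusted p = 0.88), which was not called.

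IKZF1 encodes Ikaros, a zinc finger factor that works with chromatin remodelling complexes. Its intensity in K89E cells was 1027, 918.1 and 933.2 with GM-CSF and 883.4, 862.1 and 864.9 after withdrawal, without overlap. In empty vector cells it was 923.4, 903.6 and 943.1 with GM-CSF and 902.7, 865.3 and 873.5 after withdrawal, where the closest arrays of both conditions nearly met. The log2 change in K89E cells was -0.14 (limma adjusted p = 0.030, SE 0.04). It was -0.07 (95% interval -0.16 to 0.02, limma adjusted p = 0.30) in empty vector cells. The call in K89E cells was lost in 7 of 21 alternatives, with adjusted p up to 0.12. Without K89E GM-CSF replicate 1, the brightest of its group, the change was -0.09 (limma adjusted p = 0.12), a drop by more than 1.5 times, and the call was also lost without K89E withdrawn replicate 2 or 3. The responses of the lines differed by -0.07 (95% interval -0.20 to 0.05, limma adjusted p = 0.98). The line effect was 0.05 (limma adjusted p = 0.55) with GM-CSF and -0.02 (limma adjusted p = 0.86) without it.

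SPI1, which encodes PU.1, an ETS factor needed for the myeloid and B lineages, was not called in any comparison. Its intensity in empty vector cells was 797.6, 789.9 and 802.8 with GM-CSF and 733.9, 718.7 and 780.7 after withdrawal, 2 sets that did not overlap. In K89E cells it was 847.3, 783.6 and 719.6 with GM-CSF, the widest spread of the gene, and 763.0, 766.8 and 771.2 after withdrawal, inside that spread. The withdrawal change was -0.10 (95% interval -0.21 to 0.01, limma adjusted p = 0.21) in empty vector cells and -0.03 (95% interval -0.14 to 0.08, limma adjusted p = 0.78) in K89E cells. With array weights the change in empty vector cells was -0.12 and was called (limma adjusted p = 0.049). The interval in empty vector cells reaches a fall of 0.21 on the log2 scale, so a modest fall is within what these arrays allow.

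IRF8 was also not called in any comparison. Its intensity with GM-CSF was 48.6, 45.2 and 44.5 in empty vector cells and 42.0, 43.2 and 48.1 in K89E cells. After withdrawal it was 51.0, 49.8 and 47.3 in empty vector cells and 46.6, 44.9 and 45.4 in K89E cells. The only separation was between the withdrawn groups, where K89E arrays lay below empty vector arrays by 0.11 on the log2 scale, a difference of -0.11 (95% interval -0.26 to 0.04, limma adjusted p = 0.37). In that comparison 25.4% of all rows had groups that did not overlap. At this low signal the arrays do not show whether TF-1 cells carried IRF8 RNA.

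Arrays with and without GM-CSF did not overlap for 7 of the 8 genes in empty vector cells and for 5 of 8 in K89E cells, beside 35.7% and 31.8% of all rows. Between the lines, 3 of 8 did not overlap after withdrawal and 3 of 8 with GM-CSF, beside 25.4% and 28.7% of all rows.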

How the data were processed

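The deposited table holds intensities normalized by the authors, on a linear scale from 9.31 to 17476, for 21996 rows and 12 arrays. RMA is named per the submitters' processing notes, while the sources used here give no array type, probe set definition, genome build or software version. Biotin-labelled cRNA was made from total RNA, per the labels' protocols. Intensities were converted to log2 with no pseudocount. limma 3.58.1 in R 4.3.3 was fitted to all rows and arrays, 1 mean for each group and a prior variance that follows the level. All tests were 2-sided. The procedure was also run on simulated data with independent noise and known changes added to the withdrawn K89E arrays. No result given here rests on that run. The number of arrays limits the precision, and batches are not given in the labels. Likeness between genes was Pearson's r of log2 levels over 12 arrays, and the most alike named rows were sought among the 8 genes only. The 2 most alike are given above for CEBPB, GFI1, MEF2C and CEBPA. For IKZF1 they were CEBPB, at r = 0.68, and SPI1, at r = 0.60. For MYB they were MEF2C, at r = 0.50, and IRF8, at r = -0.03.

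The members and lists were chosen with earlier results of these data known. The reference table (GRCh38.p14) has 59792 rows and 0 Ensembl IDs. The 120 genes of 10 lists of relatives, partners, targets and markers could therefore not be matched and were not analysed here. The names of the 8 genes came with the IDs in the selection rule. Sequences are RefSeq's. Protein sequences were not used here. Arrays of equal replicate number in different groups deviated from their group means with r between -0.20 and 0.23. For arrays of different number the range was -0.21 to 0.20. These ranges over all rows cannot show whether some arrays were paired. Alternatives were another prior variance, a filter, scaling, weights, a replicate block, a pseudocount of 16, fits on fewer groups and leaving out each array.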

Additional observations from a re-analysis of the deposited data

Results flagged for a closer look

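The withdrawal response of CEBPA differed between the lines by 0.52 on the log2 scale, with every withdrawn array below the arrays with GM-CSF in empty vector cells and every withdrawn array above them in K89E cells. These opposite directions are why it is listed, and the share of all rows with such opposite directions was not counted. Arrays with and without GM-CSF did not overlap for 35.7% of all rows in empty vector cells and 31.8% in K89E cells. The rise of CEBPA in K89E cells was itself not called (limma adjusted p = 0.081), and 1 of 21 alternatives called it. The test of the difference did not pass after adjustment over all rows (limma adjusted p = 0.097). With any 1 array left out it was 0.47 to 0.59, at limma adjusted p of 0.060 to 0.26. The intensities of CEBPA lay near the array medians.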

How the results depend on the processing

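Of 827 recomputed changes of the 8 genes, 777 kept direction and side of the threshold, 35 lost and 2 gained a call, and 13 changed sign, all of changes that were not called. Where no reason is given, the cause was not tested. For withdrawal in empty vector cells, 4 genes were called with any 1 array left out. For withdrawal in K89E cells 2 of 8 genes were called with a prior variance without a trend and with only the groups compared, and 2 to 4 with 1 array left out (2 without K89E withdrawn replicate 2). For K89E after withdrawal 1 was called with only the groups compared, and 1 to 2 with 1 array left out (1 without K89E withdrawn replicate 2). For K89E with GM-CSF 1 was called with a prior variance without a trend and with arrays centred on medians, and 1 to 3 with 1 array left out (1 without replicate 2 or 3 of either GM-CSF group). For the difference of responses 0 were called under every alternative. In K89E cells, the changes on withdrawal after quantile normalization were 0.0076 for MYB and -0.023 for IRF8. With 1 array left out, that of SPI1 was -0.087 to 0.030. For K89E after withdrawal, GFI1 gave -0.10 to 0.0096 and IKZF1 -0.029 to 0.0012, and for K89E with GM-CSF, SPI1 gave -0.085 to 0.032. The GFI1 difference of responses was -0.060 with array weights and -0.031 to 0.080 with 1 array left out, and that of IRF8 -0.096 to 0.0018. The replicate block changed 1 call of a member, that of CEBPA in K89E cells with GM-CSF (-0.23, limma adjusted p = 0.052). Rows called for K89E after withdrawal fell from 2756 to 1756 with only the groups compared, and those for K89E with GM-CSF rose from 2113 to 3226 with array weights. Without 1 array the latter were 1307 to 2226. For the difference of responses 15 rows were called, 5 without a trend, 8 with the replicate block and 0 to 13 without 1 array. The fit on fewer groups was not made for the difference, which needs all 4, and the filter on dim rows removed IRF8. IRF8 lay below the median of every array.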
